A study of Mus musculus with 2 samples.

Results

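The Pre-adipocyte class is 1 of 7 classes that the authors gave to single cells of the mouse bone marrow stroma. Its members are the cells that passed the authors' filter and carry that label: 211 of 2847 passing cells, 66 of 948 in the sample called Stroma1 and 145 of 1899 in Stroma2. That is 6.96% of Stroma1 (95% exact Clopper-Pearson interval 5.43 to 8.77%) and 7.64% of Stroma2 (6.48 to 8.92%), and 6.35 to 8.28% in each of the 5 libraries. Both samples form 1 untreated group: C56BL/6 mice (the labels' spelling) aged 8 to 16 weeks, whose crushed bone pieces were digested with collagenase and dispase for 45 min at 37 °C. Stromal cells were sorted as negative for CD31, CD45 and Ter119, which removes most endothelial cells, leukocytes and erythroid cells, and were barcoded in inDrops droplets. Whether each sample came from its own mice is not in the labels. Every p-value measures how differences between classes vary between these 2 samples only, with their common shift fitted, and that spread may be technical. How the classes were assigned is not given in the sources used here. If they were made from these counts, tests between classes describe the labels and add no independent support.

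Bone marrow adipocytes arise from stromal cells that make large amounts of the chemokine Cxcl12 and carry the leptin receptor, and a pre-adipocyte is a cell committed to that fate which has not yet filled with lipid. C/EBP beta and C/EBP delta act early in fat cell differentiation and are followed by PPAR gamma and C/EBP alpha, which switch on lipid genes such as Adipoq and Lpl. Immediate-early genes such as Fos, Fosb, Egr1 and Nr4a1 need no new protein to be transcribed, rise quickly after many kinds of stimulus and are soon shut off by their own feedback regulators. The inflammatory genes Cxcl1, Ccl2 and Il6 are transcribed through NF-kB and AP-1 in many cell types.

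The 6 markers given for the class were Fosb (an AP-1 subunit, chr7:19302696-19310051, minus strand), Nr4a1 (an orphan nuclear receptor, chr15:101254269-101274795, plus strand), Cxcl1 (a neutrophil chemokine, chr5:90891241-90893115, plus strand), Ccl2 (a monocyte chemokine, chr11:82035571-82037453, plus strand), Il6 (an inflammatory cytokine, chr5:30013114-30019981, plus strand) and Tnfsf11 (RANKL, which drives osteoclast formation, chr14:78277445-78308043, minus strand). These coordinates are on GRCm38 with the GENCODE M21 annotation. RefSeq's GRCm38.p6 table held a start site for 5 of the 6. The 250 bases before 4 of these start sites are shown, 5′ to 3′ on the gene's strand, because these genes were high together in the class and their windows hold letters that early-response and NF-kB factors are known to bind. Capitals mark the cyclic AMP response element core (TGACG, or CGTCA on the other strand), the AP-1 site (TGANTCA) and the NF-kB site.
Nr4a1: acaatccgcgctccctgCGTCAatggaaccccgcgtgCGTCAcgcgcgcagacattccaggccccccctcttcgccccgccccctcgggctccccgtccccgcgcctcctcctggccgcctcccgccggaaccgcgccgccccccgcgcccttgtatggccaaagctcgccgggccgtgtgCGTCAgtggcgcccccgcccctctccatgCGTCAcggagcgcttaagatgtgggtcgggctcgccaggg
Fosb: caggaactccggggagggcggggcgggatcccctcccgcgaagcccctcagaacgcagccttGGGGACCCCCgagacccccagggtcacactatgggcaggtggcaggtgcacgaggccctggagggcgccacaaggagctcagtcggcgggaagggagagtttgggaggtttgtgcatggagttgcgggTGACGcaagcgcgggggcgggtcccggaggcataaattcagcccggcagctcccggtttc
Cxcl1: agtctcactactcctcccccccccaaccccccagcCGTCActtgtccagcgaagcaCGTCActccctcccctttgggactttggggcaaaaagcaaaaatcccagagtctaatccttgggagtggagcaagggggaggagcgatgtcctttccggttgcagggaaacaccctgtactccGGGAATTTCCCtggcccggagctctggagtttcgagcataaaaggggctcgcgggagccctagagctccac
Il6: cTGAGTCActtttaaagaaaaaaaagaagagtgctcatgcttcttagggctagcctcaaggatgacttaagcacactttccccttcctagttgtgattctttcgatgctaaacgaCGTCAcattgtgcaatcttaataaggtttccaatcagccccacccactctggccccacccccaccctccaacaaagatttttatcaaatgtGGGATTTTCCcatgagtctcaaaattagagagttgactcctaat
The windows are chr15:101266596-101266845 for Nr4a1, chr7:19310046-19310295 for Fosb, chr5:90890995-90891244 for Cxcl1 and chr5:30012864-30013113 for Il6. The Nr4a1 window lies before a RefSeq start site inside the gene span given above, not before the first base of that span. It held 4 cores, at 40, 69, 213 and 233 bases before that start site, and none of the other motifs. Cxcl1 had 2 cores and an NF-kB site read on both strands, and Fosb 1 core and 1 NF-kB match. Only Il6 among the 5 windows searched had all 3 kinds, with the NF-kB letters 44 bases, the core 135 bases and the AP-1 letters 249 bases before the start. The window of Tnfsf11 held no match to these 3 motifs. The core, searched on both strands and also part of every full site TGACGTCA, was in 17.8% of all 32851 RefSeq promoter windows of this length and in 27.4% of the 6339 windows of the genes tested here. The AP-1 letters were in 6.75% of all windows and the NF-kB site in 3.90%. A match describes letters only.

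Summed over its cells, the class held 124616 counts in Stroma1 and 215170 in Stroma2, with medians of 1750 and 1217 counts per cell. The median mitochondrial share was 2.69% and 2.95%, below the 3.87% and 3.75% of the Adipocyte progenitor class and the 4.02% and 3.98% of the class labelled MSC. Comparisons were made with these 2 classes and with Osteoblast progenitor, Pre-osteoblast/chondrocyte and Pro-osteoblast. Pro-chondrocyte, with 4 and 10 cells, was too small to fit. Levels are given as CPM, the gene's counts scaled to a common total for the class in that sample, first Stroma1 and then Stroma2.

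The authors' own values put the class at the end of their adipocyte path. Their median adipocyte fate probability was 0.415 and 0.411 in the class, against 0.350 and 0.349 in Adipocyte progenitor and 0.326 in both samples of MSC. Of the 211 cells, 210 lay on that path. From the earliest Pre-adipocyte cell of the path onwards there were 262 cells, 210 of this class and 52 Adipocyte progenitors, with 0 of any other class. These values and the labels may share a source.

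Marker lists of other cell types were all below the leptin receptor stroma list, and a few cells stood apart. All 7 leptin receptor stroma markers were detected, at a summed 58259 and 52884 CPM, against 68527 and 69176 CPM in Adipocyte progenitor. Most of the sum in the class was Cxcl12, at 47899 and 43714 CPM. Of 8 markers of mature adipocytes, 6 were at 0 (Plin1, Plin4, Cidec, Cfd, Retn and Lep), and the sum was 16.0 and 4.65 CPM. The 15 blood markers summed to 2110 and 432 CPM, and to 99.0 and 205 CPM once the barcode with most counts of the list was left out in each sample. The 7 osteoblast markers summed to 4133 and 4062 CPM, mostly Ibsp (bone sialoprotein) at 3876 and 3583 CPM, against 5356 and 4613 CPM in Adipocyte progenitor and 212121 and 210573 CPM in Pro-osteoblast. Of the 356 blood counts, 91.9% were in 3 cells. Cxcl12 was absent from 4 cells, while the other 207 had at least 13 counts each. Barcodes were also shared between libraries: 4 barcodes cover 8 cells of the class in Stroma1 and 9 cover 18 cells in Stroma2. Over all passing cells, 32 barcodes cover 64 cells in Stroma1 and 203 cover 435 cells in Stroma2, and 12 barcodes occur in both samples. The exact intervals count each of these entries as a separate cell.

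The class was separated from every other class by immediate-early and inflammatory genes. Its 6 markers summed to 15977 CPM in Stroma1 and 13659 CPM in Stroma2, against 5078 and 5000 CPM in Adipocyte progenitor, 606 and 692 CPM in MSC, and at most 1395 CPM in any sample of the other 3 classes. Each marker was above every other class in both samples. These genes had been named as markers of the class, so their levels describe it and the tests on them are not independent support.

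Fosb was at 6010 and 5772 CPM in the class, 2428 and 2463 CPM in Adipocyte progenitor and 304 and 358 CPM in MSC. Its log2 fold change over Adipocyte progenitor was 1.39 (SE 0.13, adjusted p = 6.3e-15) and over MSC 4.44. Nr4a1 was at 3410 and 3551 CPM, against 1217 and 1054 CPM in Adipocyte progenitor and 72.7 and 109 CPM in MSC. In both genes the samples of the class lay close together and far from those of the next class. The log2 fold change of Nr4a1 over Adipocyte progenitor was 1.75 (SE 0.14, adjusted p = 4.1e-18).

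The 2 chemokines were more variable between samples. Cxcl1 was at 2801 and 1998 CPM in the class and at 751 and 865 CPM in Adipocyte progenitor, a log2 fold change of 1.66 (SE 0.15, adjusted p = 6.3e-15). Ccl2 was at 2520 and 1464 CPM, against 250 and 395 CPM, a log2 fold change of 2.64 (SE 0.22, adjusted p = 1.8e-16). Stroma1 was the higher sample of the class for both, and no sample of another class reached the lower of the 2 values.

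Il6 was at 618 and 404 CPM in the class and at 253 and 69.4 CPM in Adipocyte progenitor, and had no count in either sample of Pre-osteoblast/chondrocyte or Pro-osteoblast. It was 1.94 higher than in Adipocyte progenitor on the log2 scale (SE 0.31, adjusted p = 1.0e-06). Against a floor of 3 counts over both samples it was at least 30.0-fold above Pre-osteoblast/chondrocyte and at least 138-fold above Pro-osteoblast. Tnfsf11 was at 618 and 469 CPM, and its nearest class was Pre-osteoblast/chondrocyte at 199 and 142 CPM. Adipocyte progenitor had 178 and 154 CPM of it and MSC 115 and 128 CPM. The log2 fold change of Tnfsf11 over Pre-osteoblast/chondrocyte was 1.82 (SE 0.33, adjusted p = 6.7e-06). By library, Il6 ranged from 142 to 823 CPM in the class and Fosb from 5150 to 6580 CPM.

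**Figure D1:**
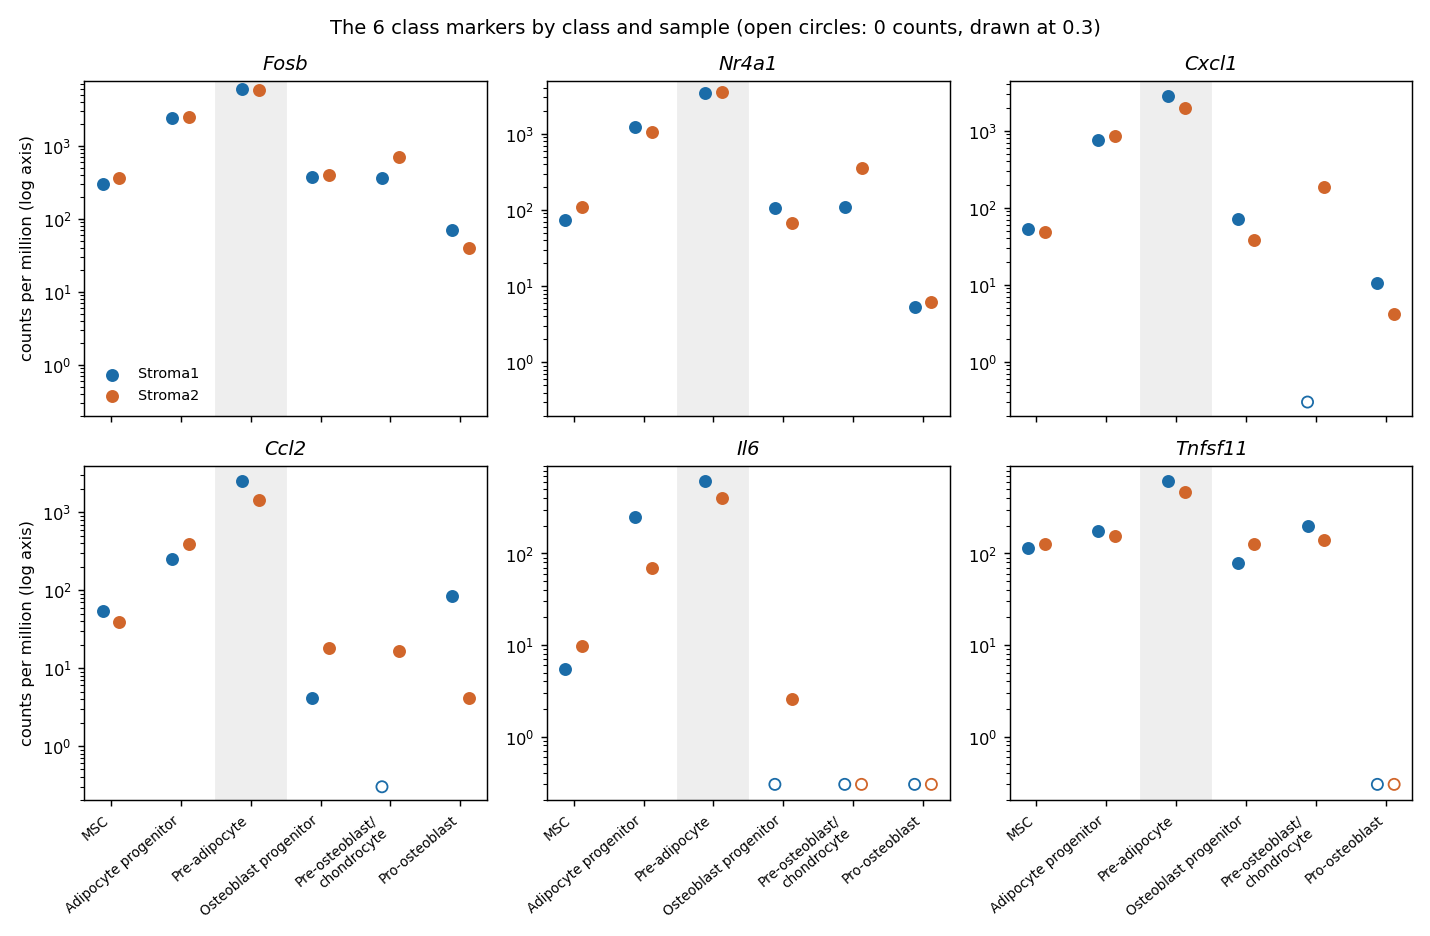
Levels of the 6 class markers in CPM (log axis) in each class, 1 point per sample, with open circles for 0 counts drawn at 0.3. The points of the Pre-adipocyte class stand above those of every other class in both samples, with Adipocyte progenitor next for every marker but Tnfsf11.

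Across the 6229 genes tested, 902 were higher in the class than in the mean of the other 5 classes (14.5%) and 387 lower (6.21%). The direction was the same in both samples for 888 and 384 of them. Of all called genes 70.0% were higher, and 80.1% were with DESeq2's size factors and Wald test. Genes above each of the 5 other classes, by the largest of the 5 one-sided p-values, numbered 186 (2.99%), and for 161 of these the nearest class was Adipocyte progenitor. Against Adipocyte progenitor alone 267 genes were higher (4.29%) and 42 lower (0.674%), and against MSC 528 were higher (8.48%) and 116 lower (1.86%). The median log2 fold change of all genes tested was 0.02 against the mean of the other classes and -0.03 against Adipocyte progenitor. Lists below that hold given markers count them too, and the calls of those markers are not independent support.

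The AP-1 subunits were high as a group. All 8 tested, the given marker Fosb among them, were above the mean of the other classes. Of these, 7 were above every class and 7 were above Adipocyte progenitor, with a median log2 difference of 1.14 from it. The shares over all genes tested were 14.5%, 2.99% and 4.29%. Junb was at 5208 and 5540 CPM, against 2296 and 2491 CPM in Adipocyte progenitor (1.29 on the log2 scale, SE 0.14, adjusted p = 3.5e-12). Fosl2 was at 457 and 632 CPM, against 225 and 168 CPM (1.64, SE 0.25, adjusted p = 6.2e-07). The exception was Fos, the most abundant of them: it had 15768 and 13157 CPM in the class and 13321 and 12866 CPM in Adipocyte progenitor, and the log2 difference of 0.27 (SE 0.13, adjusted p = 0.339) did not pass. Atf3, at 441 and 460 CPM against 288 and 215 CPM, passed against Adipocyte progenitor (0.99, SE 0.26, adjusted p = 0.00964), but lost its place above every class when the barcodes with most of its counts were left out (adjusted p = 0.0603).

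The Nr4a, Egr and other early-response transcription factors were higher without exception. All 15 tested, the given marker Nr4a1 among them, were above every class, where 2.99% of all genes were. Their median log2 difference from Adipocyte progenitor was 1.66. Nr4a3, a relative of Nr4a1, was at 457 and 418 CPM, against 50.1 and 65.2 CPM in Adipocyte progenitor (3.02 on the log2 scale, SE 0.34, adjusted p = 3.7e-11). Nr4a2 differed between the samples of the class, at 144 and 572 CPM, and both exceeded the 56.3 and 82.0 CPM of Adipocyte progenitor. Egr1, a zinc finger factor, was at 6516 and 6725 CPM, against 4305 and 3814 CPM (0.83, SE 0.12, adjusted p = 2.7e-07). The growth regulator Myc was at 1444 and 1046 CPM, against 319 and 395 CPM (1.88, SE 0.19, adjusted p = 3.7e-13). Outside this list, Ifrd1 had 5449 and 4792 CPM against 882 and 877 CPM, and was 2.66 higher on the log2 scale (SE 0.15, adjusted p = 3.5e-25).

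Feedback regulators of the early response were mostly higher too. Of 21 tested, 20 were above the mean of the other classes, 13 above every class and 14 above Adipocyte progenitor. Among all genes tested these shares were 14.5%, 2.99% and 4.29%. Zfp36, which binds AU-rich messages such as those of cytokines and promotes their decay, was at 7294 and 7324 CPM, against 3426 and 3643 CPM (1.17 on the log2 scale, SE 0.13, adjusted p = 6.8e-12). Errfi1, an inhibitor of the EGF receptor, was at 2712 and 2784 CPM, against 935 and 862 CPM (1.75, SE 0.14, adjusted p = 2.8e-18). Dusp1, a phosphatase of MAP kinases, had 1934 and 2240 CPM in the class and 2459 and 2356 CPM in Adipocyte progenitor and did not pass (-0.06, SE 0.13, adjusted p = 0.895). Socs3, an inhibitor of cytokine signalling, did not pass either (0.25, SE 0.13, adjusted p = 0.352). Fos, Dusp1 and Socs3 thus did not pass between the 2 neighbouring classes, while their fellow members Fosb, Nr4a3 and Errfi1 did.

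Among NF-kB subunits and feedback genes, 8 of 12 were above the mean of the other classes, where 14.5% of all genes were. Above every class were 6, beside 2.99% of all genes, and 5 passed the two-sided test against Adipocyte progenitor, beside 4.29%. The inhibitor Nfkbia was at 4221 and 3918 CPM, against 2728 and 2598 CPM in Adipocyte progenitor (0.74 on the log2 scale, SE 0.13, adjusted p = 2.5e-05). Tnfaip3, the ubiquitin-editing brake on NF-kB, was at 329 and 288 CPM, against 93.9 and 114 CPM (1.68, SE 0.33, adjusted p = 1.0e-04). The adhesion molecule Icam1 was at 473 and 400 CPM, against 169 and 170 CPM (1.47, SE 0.31, adjusted p = 3.8e-04).

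Of 9 chemokines tested, 8 were above the mean of the other classes, where 14.5% of all genes were. Ccl7 and Cxcl10, and the given markers Ccl2 and Cxcl1, were above every class, beside 2.99% of all genes. Ccl7, the neighbour of Ccl2 on chromosome 11, was at 867 and 446 CPM, against 97.0 and 56.8 CPM in Adipocyte progenitor (3.19 on the log2 scale, SE 0.32, adjusted p = 3.7e-13). Cxcl10 was at 1059 and 748 CPM, against 379 and 273 CPM (1.60, SE 0.22, adjusted p = 2.8e-08). Of the interferon response list, 0 of 16 genes were above Adipocyte progenitor by edgeR, where 4.29% of all genes were. Of 6 cytokine genes of the Il6 and Il1 families, 4 were above the mean of the other classes, where 14.5% of all genes were. Of these 4, only Il6, a given marker, was above every class. Among the 4, Il1b had 6 counts in 1 barcode of library 2.3 and 8 counts in 2 other cells of the class.

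Of 5 osteoclast and macrophage factors, 4 were above the mean of the other classes, where 14.5% of all genes were. Tnfsf11, a given marker, and Ptgs2 were above every class, beside 2.99% of all genes. The Ptgs2 call was lost without the barcode that held 85.0% of its counts in the class. Csf1, the macrophage growth factor, was at 1460 and 967 CPM in the class, against 1032 and 940 CPM in Adipocyte progenitor, and did not pass (0.39, SE 0.15, adjusted p = 0.15).

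**Figure D2:**
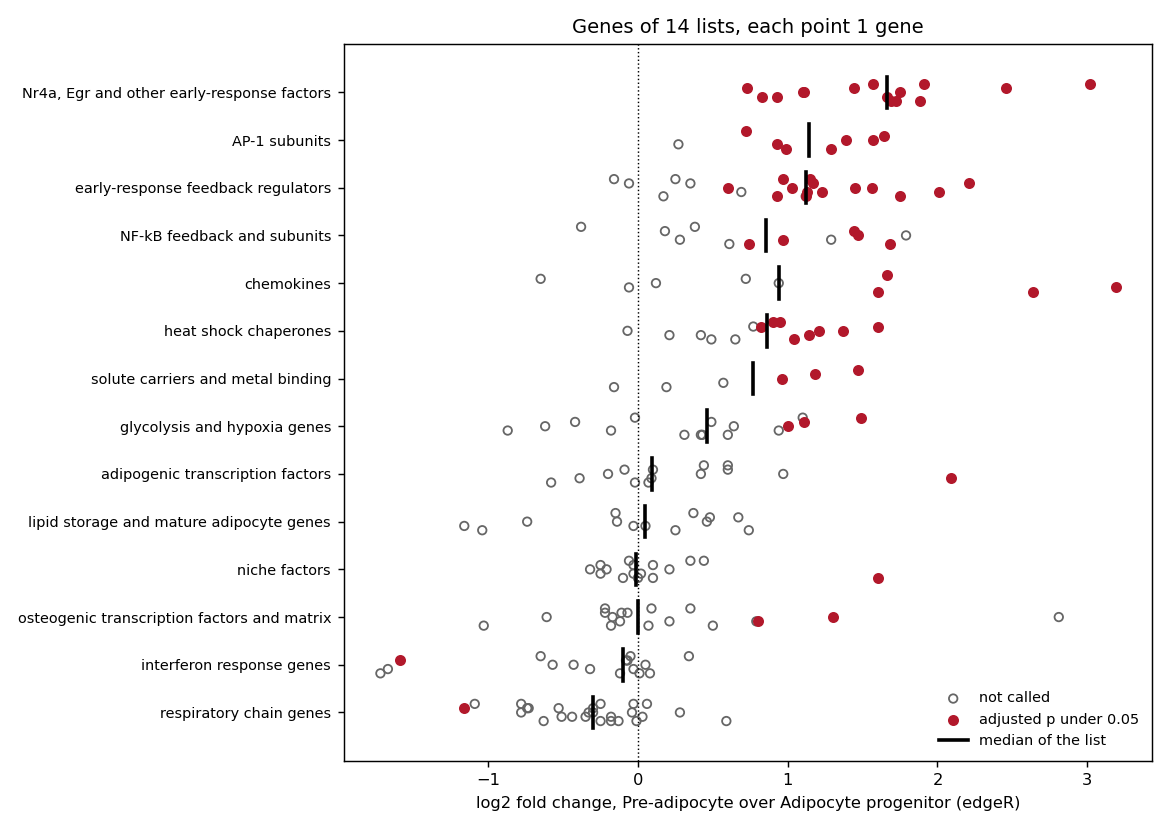
Log2 fold change of the Pre-adipocyte class over Adipocyte progenitor for genes of 14 lists, 1 point per gene. Filled points passed the test and bars are list medians: the early-response factors all lie above 0, and lipid genes and niche factors lie on both sides of it.

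Heat shock and metal-binding genes were raised beside the early-response genes. Of 14 heat shock chaperones, 12 were above the mean of the other classes, where 14.5% of all genes were. Above every class were 9, beside 2.99% of all genes, and 8 passed the two-sided test against Adipocyte progenitor, beside 4.29%. The chaperone Hspa8 was at 6668 and 5884 CPM, against 3538 and 3803 CPM in Adipocyte progenitor (0.90 on the log2 scale, SE 0.13, adjusted p = 5.3e-08), and its cofactor Dnajb1 at 1340 and 1162 CPM, against 488 and 560 CPM (1.37, SE 0.17, adjusted p = 2.4e-09). The stress-inducible Hspa1a, whose reads may be shared with its near-identical copy Hspa1b, at 249 and 256 CPM against 178 and 231 CPM, did not pass (0.42, SE 0.31, adjusted p = 0.607). All 6 tested genes of the list of solute carriers and metal binding were above the mean of the other classes, and 3 were above Adipocyte progenitor. The metallothionein Mt2 was at 4020 and 3820 CPM, against 1858 and 1916 CPM (1.18, SE 0.16, adjusted p = 1.1e-08). Hmox1, which degrades heme and was in the list of inducible enzymes, was at 1276 and 604 CPM, against 175 and 172 CPM (2.49, SE 0.25, adjusted p = 5.1e-13).

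Of 14 adipogenic transcription factors, 7 were above the mean of the other classes, and Cebpb alone was above every class and above Adipocyte progenitor, where 4.29% of all genes were. Cebpb was at 3691 and 3430 CPM, against 976 and 854 CPM in Adipocyte progenitor (2.09 on the log2 scale, SE 0.14, adjusted p = 1.1e-21). Cebpd was at 1541 and 1538 CPM, against 1186 and 1325 CPM, and did not pass (0.42, SE 0.14, adjusted p = 0.083). Pparg was at 80.2 and 79.0 CPM in the class, 46.9 and 65.2 CPM in Adipocyte progenitor and 69.9 and 62.4 CPM in MSC, which left its difference from Adipocyte progenitor unresolved (0.60, SE 0.45, adjusted p = 0.614). Cebpa was at 409 and 428 CPM, against 447 and 482 CPM (-0.02, SE 0.20, adjusted p = 0.989).

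Of 14 lipid storage and adipocyte genes tested, 3 were above the mean of the other classes, where 14.5% of all genes were. By edgeR 0 were above Adipocyte progenitor, where 4.29% of all genes were. In a list this short, 0 does not set it apart from all genes. Adiponectin (Adipoq) was at 2255 and 1399 CPM in the class, 1990 and 1952 CPM in Adipocyte progenitor and 1925 and 1808 CPM in MSC. The 2 samples of the class lay on either side of the values of those 2 classes. Lpl, which hydrolyses circulating triglycerides, was at 3089 and 3430 CPM, against 4183 and 3829 CPM in Adipocyte progenitor (-0.15, SE 0.14, adjusted p = 0.705), and was lower than in MSC, at 5338 and 5258 CPM (-0.39, adjusted p = 0.0494). The list's median log2 difference from Adipocyte progenitor was 0.05, beside -0.03 over all genes tested.

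**Figure D3:**
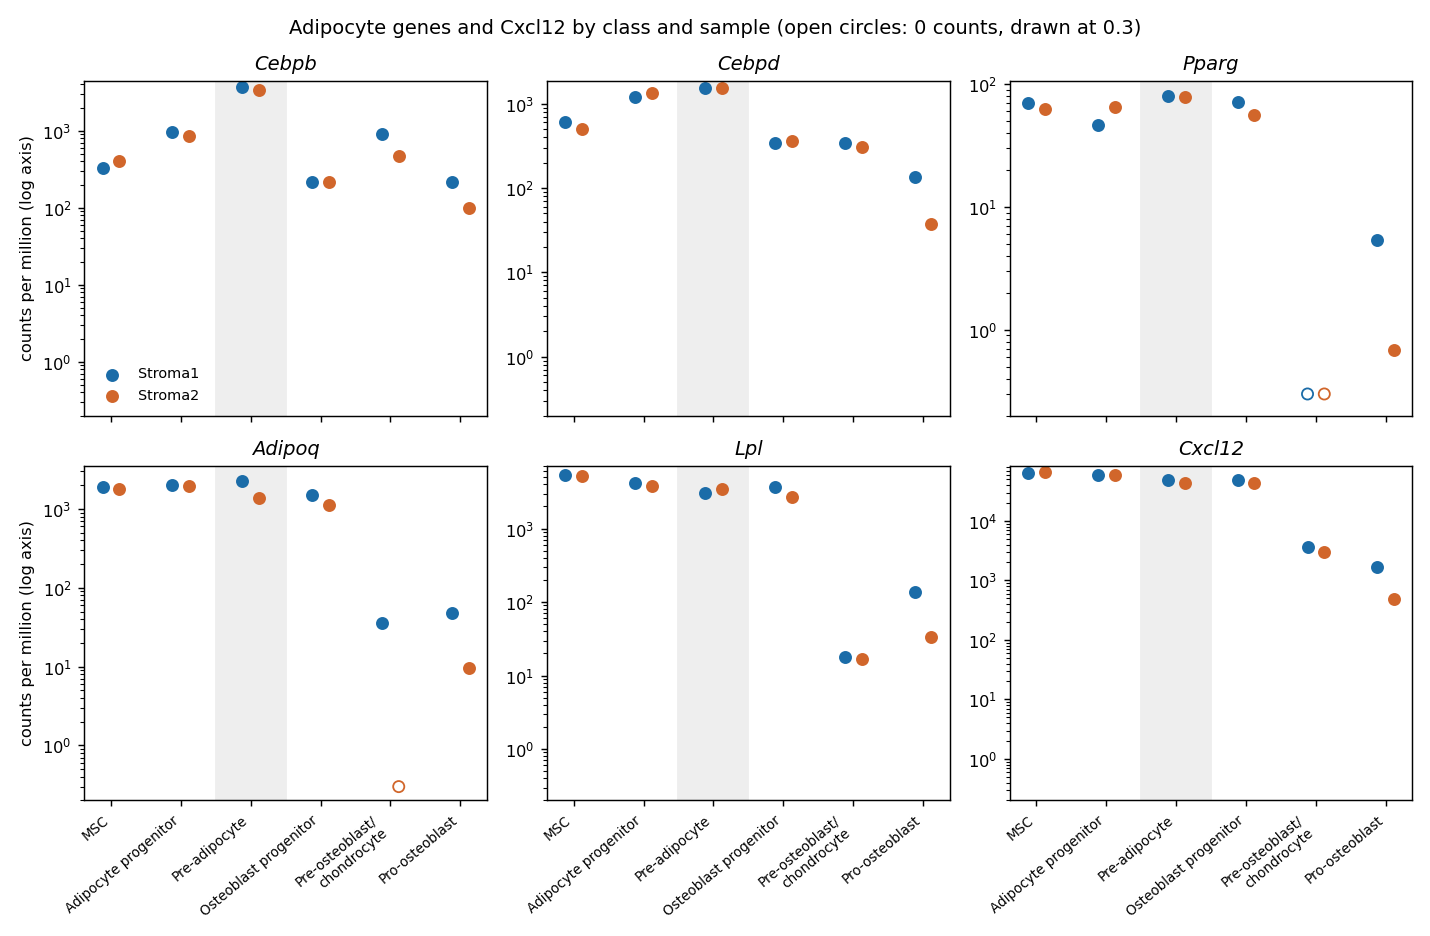
Levels of 5 adipocyte genes and Cxcl12 in CPM (log axis) in each class, 1 point per sample, with open circles for 0 counts drawn at 0.3. Cebpb stands above the other classes in Pre-adipocyte, while Pparg, Adipoq, Lpl and Cxcl12 lie within or near the values of Adipocyte progenitor and MSC.

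Of 17 factors of the blood stem cell niche, 13 were above the mean of the other classes, where 14.5% of all genes were. Only 1, Vegfa, was above Adipocyte progenitor, near the 4.29% of all genes. Cxcl12, the chemokine that holds stem cells in the marrow, was at 47899 and 43714 CPM, against 58707 and 59579 CPM in Adipocyte progenitor (-0.25, SE 0.18, adjusted p = 0.587). Kitl, the stem cell factor, was at 1364 and 1153 CPM, against 1314 and 1224 CPM (0.10, SE 0.14, adjusted p = 0.831). The angiogenic factor Vegfa was at 971 and 864 CPM, against 344 and 313 CPM (1.60, SE 0.19, adjusted p = 4.3e-10).

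Of 20 osteogenic genes tested, 10 were below the mean of the other classes, where 6.21% of all genes were. Below Adipocyte progenitor there were 0, beside 0.674% of all genes. Col1a1, the main bone collagen chain, was at 177 and 339 CPM in the class, 410 and 454 CPM in Adipocyte progenitor, and 201263 and 202082 CPM in Pro-osteoblast. Bglap2 (an osteocalcin gene with a near-identical neighbour, Bglap, so its counts are uncertain) had no count in the class, which puts it at least 385-fold lower than in Pro-osteoblast, and Col11a2 was likewise at least 540-fold lower. All 10 genes named for the largest fall, Tusc1, Vldlr, Zfp322a, Snap47, Bglap2, Col11a2, Galns, Gamt, Ccdc32 and Smco4, had no count in the class. Their fitted folds are therefore no bound: the very low density lipoprotein receptor Vldlr was at least 21.8-fold lower than in Pre-osteoblast/chondrocyte, and Tusc1 at least 7.28-fold lower. Of 26 respiratory chain genes, 0 were higher and 11 lower than the mean of the other classes, where 14.5% and 6.21% of all genes were. Among them only Ndufa2, a complex I subunit at 88.3 CPM in both samples against 197 and 229 CPM, was also below Adipocyte progenitor (-1.16, SE 0.31, adjusted p = 0.0102).

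Few genes separated the class from Adipocyte progenitor by being lower. Of the 387 genes below the mean of the other classes, 32 were also below Adipocyte progenitor. They include the collagenase Mmp13, at 530 and 572 CPM against 1214 and 1159 CPM (-0.98, SE 0.19, adjusted p = 7.2e-05), and the membrane protease Mmp14, at 8.02 and 55.8 CPM against 144 and 151 CPM (-1.88, SE 0.43, adjusted p = 0.00161). By edgeR, 0 genes were below every other class (109 at an unadjusted p under 0.05), and by DESeq2 also 0.

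Some leading genes had much of their count in 1 barcode. Of the 902 genes above the mean of the other classes, 43 (4.77%) had at least 33.3% of their counts in the class in 1 barcode of 1 sample, and 268 (29.7%) lost the call when the barcode with most of the gene's counts was left out in each sample. Among the 186 genes above every class, 65 (34.9%) lost that call. Leaving out each gene's own top barcode lowers every gene in the class by construction, and moved the median log2 fold change of all genes tested from 0.02 to -0.42, so a lost call alone does not show that a gene rests on 1 barcode. Over the 902 genes the median share held by the top barcode was 8.33%. Among the 596 genes with at least 40 counts in the class, 89 lost it.

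The 6 markers kept their calls. The top barcode held 2.91% of the class's Fosb counts, 4.71% of Nr4a1, 4.75% of Cxcl1, 5.25% of Ccl2, 12.2% of Il6 and 11.2% of Tnfsf11, and each kept both calls without it. Fosb was counted in 61 of 62 barcodes of the class in Stroma1 and in 128 of 136 in Stroma2. Il6 was counted in 15 and 24 barcodes.

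Ptgs2 (the inducible cyclooxygenase), Fn1 (fibronectin), Bmp2 (a bone morphogenetic protein) and Sox9 (the cartilage master factor) rested largely on 1 barcode. One barcode of Stroma2 held 25 of the 43 genes. It occurs in library 2.1 with 3926 counts and in library 2.3 with 8001 counts, has no Cxcl12 count in either, and makes up 3.51% of the counts of the class. It held 73 and 119 of the 226 Ptgs2 counts of the class (85.0% in all), 60 and 105 counts of Fn1 (95.4%), 56 and 98 of Bmp2 (76.2%) and 43 and 59 of Sox9 (61.1%). Its copies also held 17 and 51 cartilage marker counts and 29 and 85 counts of the class markers. By library, Ptgs2 was at 1297 CPM in library 2.1 and 1639 CPM in 2.3, against 14.2 CPM in library 2.2 and 80.6 and 95.8 CPM in the libraries of Stroma1.

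Without this barcode Fn1 changed direction. It was called higher than the mean of the other classes with it (0.85 on the log2 scale, SE 0.22, adjusted p = 0.00201), at 40.1 CPM in Stroma1 and 781 CPM in Stroma2, and stood at -3.37 without it. Ptgs2 fell from 5.94 to 3.07 on the log2 scale without its top barcode in each sample, and was no longer above every class with either setting (adjusted p = 1). Without the barcode of Stroma2 alone, Bmp2 stayed above every class (adjusted p = 0.00967) and Sox9 did not (adjusted p = 0.0765). With the top barcode of each sample left out, neither passed (adjusted p = 0.0661 for Bmp2 and 0.32 for Sox9). Outside this barcode Bmp2 was still counted 48 times in 26 cells and Sox9 65 times in 41 cells.

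Other barcodes held the myeloid genes. One barcode of library 1.2, with 3446 counts, held 166 of 215 S100a9 counts, 77 of 101 S100a8 counts and 36 of 44 Retnlg counts of the class. S100a8 and S100a9 are calcium-binding proteins of neutrophils, and Retnlg is a neutrophil product. This barcode also had 56 Cxcl12 counts. A barcode of library 2.3 with 1175 counts, 27 blood marker counts and no Cxcl12 held the largest shares of 6 genes, among them Il1b and the granule proteoglycan Srgn. No doublet caller was run, and whether these barcodes are doublets was not tested.

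**Figure D4:**
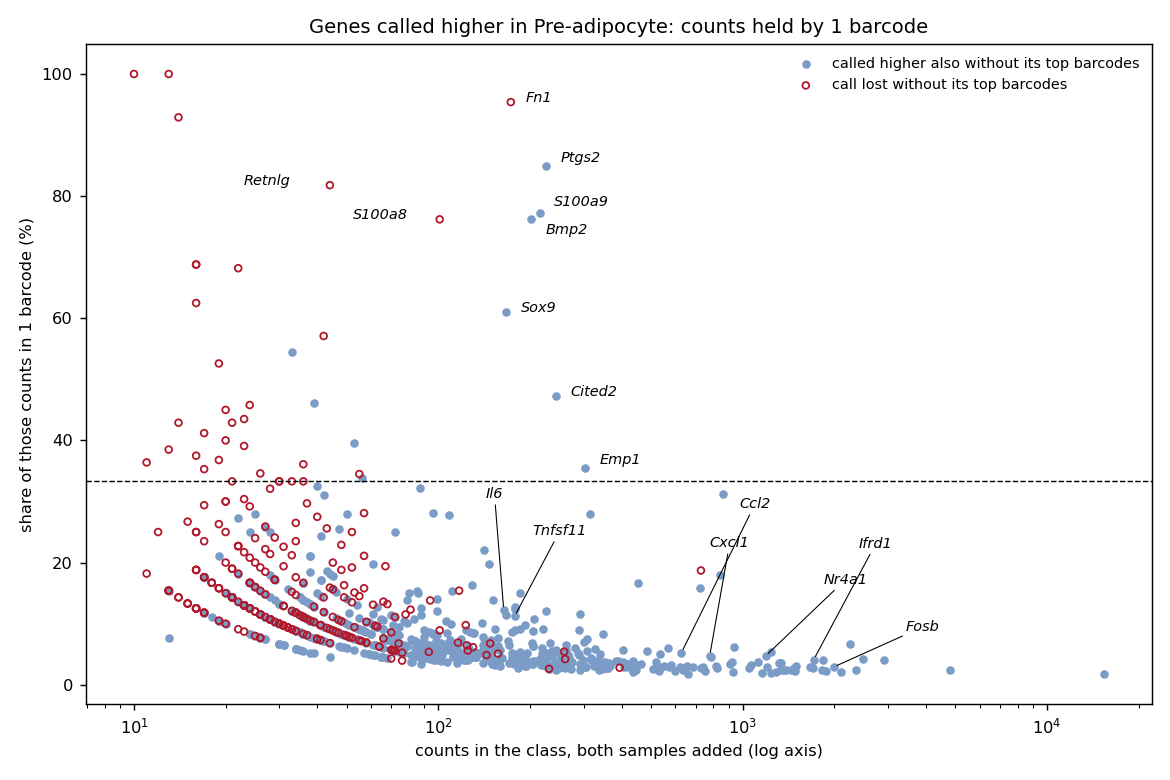
Share of a gene's counts in the class held by its top barcode (percent) against its counts in the class (log axis), for the genes called higher than the mean of the other classes. Open circles lost the call without their top barcodes. Fn1 is at 95.4% and Ptgs2 at 85.0%, and the class markers reach at most 12.2%.

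**Figure D5:**
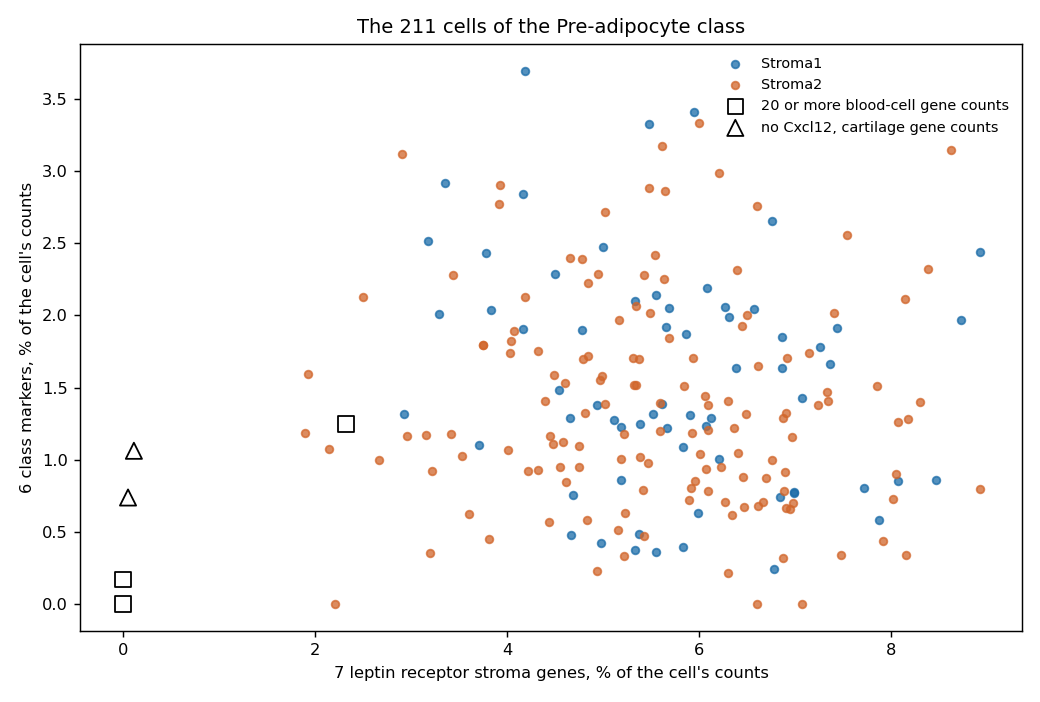
Each point is 1 of the 211 cells: the 6 class markers against the 7 leptin receptor stroma genes, both as a percent of the cell's counts, coloured by sample, with squares for cells of 20 or more blood marker counts and triangles for the copies of the barcode with cartilage gene counts. The 4 cells without Cxcl12 lie near 0 on the horizontal axis, while the other 207 are at 1.89% or more.

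Fosb and Nr4a1 were counted in most cells of the class. To compare classes of unequal depth, each cell was thinned to 500 counts. Fosb was then found in 86.4% of cells in Stroma1 (95% exact interval 75.7 to 93.6%) and 89.7% in Stroma2 (83.5 to 94.1%), or 97.0 and 94.5% unthinned, against 64.2 and 65.8% in Adipocyte progenitor, 11.2 and 12.1% in MSC and 7.14 and 1.31% in Pro-osteoblast. Unthinned, Fosb was counted in 22.3 and 21.6% of MSC cells and in 19.0 and 10.2% of Pro-osteoblast cells, whose median depth was 4422 and 4201 counts. The level that free RNA gives was not measured. Nr4a1 was found in 59.1 and 70.3% of thinned cells (78.8 and 86.2% unthinned), against 32.7 and 36.6% in Adipocyte progenitor. In Pro-osteoblast it was counted in 2.38 and 1.97% of unthinned cells. Cxcl1 was found in 54.5 and 38.6%, Ccl2 in 45.5 and 34.5%, Tnfsf11 in 16.7 and 15.9% and Il6 in 13.6 and 8.28%. At least 3 of the 6 markers were found in 59.1 and 47.6% of the thinned cells of the class, 12.7 and 13.4% of Adipocyte progenitor and at most 0.245% of MSC. None of the 6 was found in 1.52 and 3.45% of the thinned cells of the class. The 2 classes differed in how many cells carried several markers together, and Adipocyte progenitor lay between the class and MSC in both samples.

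The promoter windows of the genes above every class were searched in the same way. RefSeq matched 147 of these 186 genes, with 194 windows, and 4860 of the 6229 genes tested. The core was in 42.8% of the 194 windows and in 27.4% of the 6339 windows of all genes tested. The AP-1 letters were in 7.73% against 4.16%, and the NF-kB site in 7.73% against 4.62%. These shares describe the windows and were not tested.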

How the data were processed

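Counts, fractions and scores per cell were deposited by the authors in 1 table of 15028 barcodes and 25289 genes. The count of each gene was made by the authors from inDrops reads; the submitters' processing notes name Bowtie 1.1.1 and GRCm38, and the counting tool and use of molecular identifiers were not given in the sources used here. By the file headers, fractions that the authors deposited are mitochondrial shares, fate probabilities and pseudotimes, and their deposited score is a potential with no unit stated. Passing cells had 500 to 16562 counts.

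Counts were summed by sample and class, for classes with at least 15 cells in each sample, and fitted with edgeR 4.0.16 (R 4.3.3) by its quasi-likelihood test, with TMM scaling, filterByExpr at a minimum count of 10, and a term for class and for sample. The sample term is the replicate block, since sums of 1 sample share its cells' preparation. The spread is shared by the 6 classes, with 5 residual degrees of freedom. The contrasts set the class against the mean of the other 5, each weighted alike, and against each alone by a two-sided test. A gene was called above every class from the largest of its 5 one-sided p-values, adjusted in the same way, so these calls can outnumber those of a two-sided test against 1 class. Adjustment was by Benjamini-Hochberg over the 6229 genes tested, with a threshold of 0.05. Folds are on the TMM scale, while CPM uses raw class totals. Intervals and floors cover counting error only. On simulated sums with 4-fold changes the fit recovered 99 of 100 raised and 54 of 100 lowered genes, with 10 false calls. The simulated classes otherwise shared 1 mean profile, and every gene had the same spread (common dispersion 0.0155). Genes resting on single barcodes were not simulated, so these rates need not hold for the real counts.

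The members, their markers and the 26 gene lists (463 genes, 327 tested) were chosen with earlier results of these data known. Named genes were the 6 markers, the 20 highest and 10 lowest called genes whose samples shared their direction, the 10 with the largest share in 1 barcode, up to 4 per list, the 10 furthest above every class, and the 8 highest and 8 lowest between late and early cells. Other list members are examples named after their values were seen. Classes are the authors'. No doublet caller was run. Alternatives covered filters, thinning, left-out barcodes, cells and samples, the reference sum and DESeq2 1.42.0.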

Additional observations from a re-analysis of the deposited data

How the results depend on the processing

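The 6 class markers kept their direction and call under each alternative with a test. The count of 902 genes called higher became 404 with cells thinned to 500 counts, where 2014 genes could be tested (399 of them among the 902), and 497 with all other cells in 1 sum (466 among the 902). The 387 lower calls became 918 without each gene's top barcode, which lowers the class by construction, 208 thinned, 216 without Pro-osteoblast, 236 against 1 sum and 213 by DESeq2. The 186 genes above every class became 121 without top barcodes and 92 thinned. Against Adipocyte progenitor, the 267 higher became 164 with no filter on low counts and 120 thinned, and the 42 lower became 208 without top barcodes, 13 thinned and 13 by DESeq2. Against MSC, the 528 higher became 237 thinned, and the 116 lower became 553 without top barcodes and 22 by DESeq2. With no replicate block, 913 were higher, 388 lower and 190 above every class. Without the 4 cells with no Cxcl12 count, an alternative chosen after seeing the data like that without the deepest barcode, 877 were higher and 179 above every class.

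Fn1 reversed to -4.12 without its top barcode, -1.44 thinned, -3.86 without the deepest 5% of cells, -3.37 without the deepest barcode and -3.36 without the cells with no Cxcl12. With 1 sample left out, it lay between -2.42 and 1.46 and Col10a1 between -0.78 and 3.74, as values with no test, since 1 sample leaves no residual spread. Pdgfrb reversed to -0.16 without Pro-osteoblast and -0.15 against 1 sum, where Rspo2 was at -0.76 and Sfrp4 at -0.19. Ergic3 was at 0.01 thinned, 0.08 without the deepest cells and 0.02 by DESeq2. Beyond what the settings' construction shows, the cause was not tested. Depth limits the lower side, where 13 called genes had no count in the class.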

Other observations

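Growth factor and matrix genes outside the groups above showed a mixed picture. Over all genes tested, 14.5% were above and 6.21% below the mean of the other classes. Above every class were 2.99%, and above Adipocyte progenitor 4.29%. Of 23 BMP and TGF-beta genes, 13 were above the mean of the other classes, and 4 above every class, among them Id3, an inhibitor of differentiation factors, at 4478 and 4378 CPM against 3188 and 3048 CPM in Adipocyte progenitor (0.63 on the log2 scale, SE 0.13, adjusted p = 3.5e-04). Of 15 proteases and inhibitors, 5 were above the mean of the other classes, among them the protease Adamts1 at 1926 and 1836 CPM against 763 and 1001 CPM (1.21, SE 0.15, adjusted p = 5.7e-10). Of 16 glycolysis genes, 4 were above every class and 3 passed against Adipocyte progenitor, among them Ldha (1.11, SE 0.16, adjusted p = 6.5e-08). Of 15 Wnt genes and 7 Notch genes, 0 were above Adipocyte progenitor by edgeR, where 4.29% of all genes were. Of 22 collagen and matrix genes, 7 were above and 8 below the mean of the other classes.

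Within the class, cells were divided at the median of the authors' adipocyte pseudotime in each sample, which may itself rest on these counts, so no test was made. Of 1010 genes with at least 50 counts, 286 were higher in the late cells of both samples and 272 lower in both. Unrelated samples would also share a direction for many genes, so these counts alone do not show reproducible change. By over 1 on the log2 scale in both samples, 11 were higher and 5 lower. The 11 include Fn1 and Ptgs2, with 95.4% and 85.0% of their counts in 1 barcode, and the 5 include S100a8 and S100a9. Egr2, an early-response factor with 28.1% of its counts in 1 barcode of Stroma2, went from 106 to 391 CPM in Stroma1 and from 129 to 466 CPM in Stroma2. The matrix protein Mgp, with 31.3% of its counts in 1 barcode, went from 1413 to 3196 CPM and from 1498 to 3780 CPM. Fosb differed less, by 0.40 and 0.56 on the log2 scale. S100a8 and S100a9 were highest in the early cells, where their top barcode lies.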
